A study of Homo sapiens with 6 samples.

Results

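The regions described here are 2642 peaks of the DHX9-Rb list that stood alone on their strand, called solitary peaks below. A peak was counted as solitary when no other DHX9-Rb peak lay within 5000 nt of it on the same chromosome and strand, the gap being the number of nucleotides between the end of one peak and the start of the next. They were chosen by these positions from 21618 peaks, of which 54 on the mitochondrial chromosome were left out, so they made up 12.3% of the remaining 21564 peaks (95% Wilson interval 11.8 to 12.7). The other 18922 peaks served for comparison. The data come from FLASH, a cross-linking and immunoprecipitation assay in which ultraviolet light ties a protein to the RNA it touches before pull-down and sequencing. It was carried out in HEK293 cells, an established human embryonic kidney line, with the DHX9 antibodies DHX9-Rb and DHX9-mAb (names as labelled) and with the control immunoglobulin IgG-Rb, each in 2 biological replicates. The labels name no other treatment or genotype. Each DHX9 antibody has 1 list of peak positions for both of its replicates, so that no value per replicate, read depth or peak height stands behind a region, and no IgG-Rb values were used here. Positions are those of the human assembly hg19. Positions alone identify a region here, since no hg19 annotation was used.

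DHX9, also called RNA helicase A, unwinds double-stranded RNA in an ATP-dependent manner and is found mostly in the nucleus. Long human transcripts carry many Alu elements, short repeats that lie in either orientation, and a pair in opposite orientation can fold into a hairpin. In cross-linking data a peak is a stretch of a transcript where reads pile up, and 1 transcript can carry many peaks or a single one.

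A single peak was the most frequent size of a group of linked peaks, although solitary peaks were a small part of the list. When same-strand peaks with gaps of at most 5000 nt were linked into groups, the list fell into 5721 groups, and the solitary peaks were 46.2% of them. The other 3079 groups held a median of 4 peaks and at most 105. Groups of 10 and more peaks numbered 493, or 8.62% of the groups, and held 43.2% of the peaks. Solitary peaks covered 481208 nt, which was 9.91% of the nucleotides covered on either strand. For 46.4% of the solitary peaks with a same-strand neighbour (1225 of 2641) that neighbour was solitary as well, and for the rest it belonged to a group.

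The limit of 5000 nt did not fall in a gap of the distribution. The 5 solitary peaks closest to it had their nearest neighbour at 5002 to 5028 nt and were 129 to 316 nt wide. Of these, 2 on the minus strand of chromosome 11, from 117178408 to 117178723 and from 117183740 to 117183868, were each other's neighbour at 5016 nt. The 5 peaks just outside the limit had gaps of 4995 to 5000 nt and widths of 138 to 283 nt, and they too included a mutual pair, on the minus strand of chromosome 22 from 42989934 to 42990105 and from 42995106 to 42995276. DHX9-mAb overlapped 1 of the 5 peaks inside and 0 of the 5 outside.

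Solitary peaks were narrower than the other peaks. Their median width was 166 nt (exact binomial 95% interval 163 to 169, interquartile range 128 to 213, n = 2642), against 207 nt for the other peaks (205 to 208, interquartile range 157 to 280, n = 18922). The difference is given without a test, since both widths and gaps come from the same peak positions. The median width became smaller from one class of distance to the next. It was 221 nt where the nearest same-strand peak lay within 100 nt, 209 nt from there to 500 nt, 191 nt from there to 1000 nt, 185 nt from there to 5000 nt, and 166 nt for solitary peaks. On all 23 chromosomes compared (1 to 22 and X) the solitary peaks had the lower median width, although on chromosome 3 the medians were 185 and 186 nt.

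**Figure D1:**
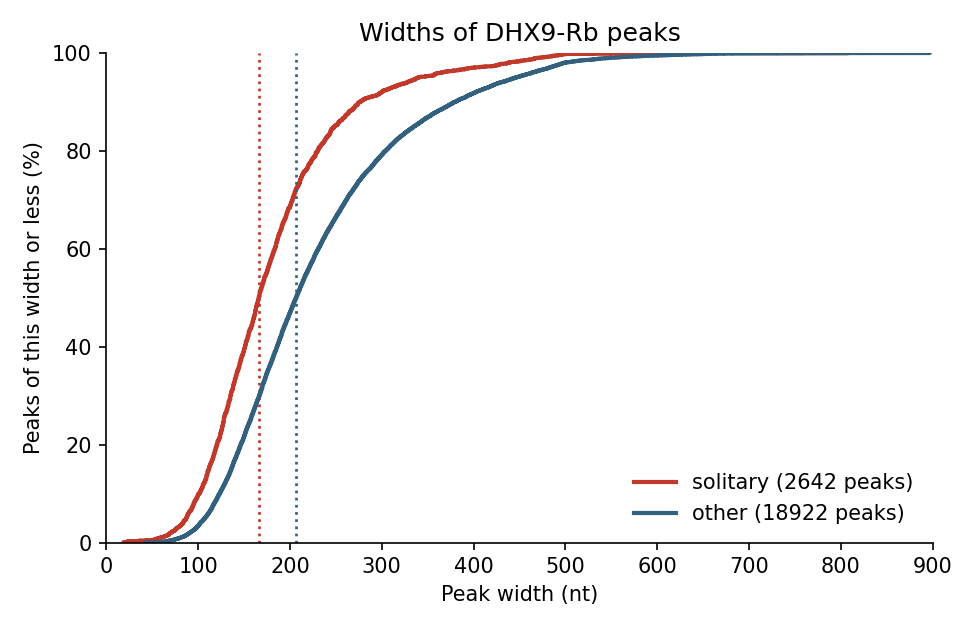
Cumulative share of DHX9-Rb peaks (y axis, %) by width in nt (x axis) for the 2642 solitary and the 18922 other peaks, with dotted lines at the medians of 166 and 207 nt. The curve of the solitary peaks lies to the left over most of its range.

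The shares of the 2 sets differed over the whole width range. Peaks under 100 nt made up 9.54% of the solitary peaks (252) and 3.35% of the others (633). From 100 to under 150 nt the shares were 29.4% and 18.0%, from there to under 200 nt 29.4% and 25.4%, and from there to under 300 nt 23.6% and 32.4%. Peaks of 300 nt and over made up 8.06% of the solitary peaks (213) and 20.9% of the others (3955). Read the other way, 28.5% of all peaks under 100 nt were solitary, 18.6% of those from 100 to under 150 nt, 13.9% from 150 to under 200 nt, 9.24% from 200 to under 300 nt and 5.11% of those of 300 nt and over.

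The narrowest peaks of the list were all solitary. There were 8 peaks of at most 30 nt outside the mitochondrial chromosome, all 8 stood alone, and they lay on 8 different chromosomes. This width was picked after the values had been seen, and it lies below the narrowest other peak, of 42 nt. Of the 21 peaks of at most 50 nt, 14 were solitary (66.7%). DHX9-mAb overlapped 2 of the 8 peaks of at most 30 nt, and in both cases the DHX9-mAb peak had exactly the same first and last base. One was 23 nt wide, on the plus strand of chromosome 7 from 93853626 to 93853648, with its nearest same-strand neighbour 408154 nt away. The second was 22 nt wide, on the minus strand of chromosome 8 from 77557822 to 77557843, with its nearest same-strand neighbour 3511229 nt away. The other 6 had no DHX9-mAb peak on them. Among these, a 21 nt peak on chromosome 1 from 179064547 to 179064567 (minus strand), a 23 nt peak on chromosome 19 from 58024411 to 58024433 (minus strand) and a 25 nt peak on chromosome 2 from 65221971 to 65221995 (plus strand) lay 103336, 392861 and 4840250 nt from the nearest same-strand DHX9-mAb peak.

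At the other extreme, 79 solitary peaks were 400 nt or wider, which was 4.82% of the 1638 peaks of that width. The widest, with 808 nt, was the only DHX9-Rb peak on the unplaced contig chrUn_gl000220, from 117579 to 118386 on the plus strand. It was the only one of the 10 widest solitary peaks that DHX9-mAb overlapped, over 740 nt, and the only one with no neighbour on its sequence. The next widest were a 580 nt peak on the plus strand of chromosome 1 from 27023434 to 27024013, a 554 nt peak on the same strand of that chromosome from 29381800 to 29382353, and a 549 nt peak on the plus strand of chromosome 6 from 42990587 to 42991135. Their nearest same-strand DHX9-Rb neighbours were 7919, 23739 and 6487 nt away, so that 2 of the 3 lay not far beyond the limit. Of the 10 widest, 6 had their neighbour within 10000 nt.

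Solitary peaks were spread more evenly over the chromosomes than the other peaks. Their density ranged from 0.412 per Mb between the first and last peak on chromosome 18 to 3.08 per Mb on chromosome 19, a 7.48-fold range, with a median of 0.845 over chromosomes 1 to 22 and X. The density of the other peaks had a median of 4.83 per Mb and ranged 66.0-fold, from 0.702 on chromosome 13 to 46.4 on chromosome 19. Chromosomes 1, 17 and 19 held 27.3% of the solitary peaks and 38.9% of the others. The largest number of solitary peaks was on chromosome 1, with 325. Chromosome 13 had the largest solitary share, 41 of its 107 peaks (38.3%), and chromosome 18 followed with 32 of 113 (28.3%). Chromosome 19 had the smallest, 181 of 2905 (6.23%), below chromosome 22 with 85 of 1159 (7.33%). A crowded chromosome leaves less room for a solitary peak, so these shares follow from the rule in part and carry no test. The plus strand held 50.4% of the solitary peaks (Wilson 48.5 to 52.3) and 52.5% of the others (51.8 to 53.2).

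Many solitary peaks were far beyond the limit. The median distance to the nearest same-strand peak was 39109 nt (interquartile range 12575 to 242455, n = 2641), and it was 180 nt for the other peaks. Of the solitary peaks, 508 (19.2%) had their neighbour within 10000 nt, 907 (34.3%) between there and 50000 nt, 511 (19.3%) between there and 200000 nt, and 716 (27.1%) farther away. Counting either strand, the nearest peak was a median of 30795 nt away, against 177 nt for the other peaks, and for 667 solitary peaks (25.2%) it was on the opposite strand.

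Nearly all solitary peaks were also alone when both strands were counted. A DHX9-Rb peak lay on the opposite strand within 5000 nt of 40 of them (1.51%, Wilson 1.11 to 2.05), so 2602 had no neighbour on either strand at that distance. The share was 2.11% (1.92 to 2.33) for the other peaks. Thus 98.5% of the solitary peaks stood alone on both strands.

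For 8 solitary peaks a peak of the opposite strand overlapped the same positions (0.303%, Wilson 0.154 to 0.596, against 0.550% of the other peaks). In none of the 8 cases was the opposite peak solitary, so each time a lone peak faced a group. The longest shared stretch, 162 nt, was on chromosome 14, where a minus-strand solitary peak from 50111372 to 50111561 faced a plus-strand peak from 50111369 to 50111533. On chromosome 17 a minus-strand solitary peak from 29119622 to 29119802 shared 160 nt with a plus-strand peak from 29119643 to 29119917. On chromosome 12 there were 2 such places, from 1319721 to 1319959 with 144 nt shared and from 120897253 to 120897467 with 87 nt shared, and in both DHX9-mAb overlapped the opposite peak and not the solitary one. The same held on chromosome 21 from 30430698 to 30430856, with 18 nt shared. The reverse was seen once, on chromosome 5, where a 52 nt plus-strand solitary peak from 134260247 to 134260298 lay wholly within a minus-strand peak from 134260222 to 134260314. There DHX9-mAb had a peak on the plus strand from 134260240 to 134260292 and none on the opposite peak. At the other 4 places, those of chromosomes 14 and 17 and one each on chromosome 21 from 37512020 to 37512284 and on chromosome 16 from 70361270 to 70361597, DHX9-mAb overlapped neither the solitary peak nor the one it faced.

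The 10 most remote solitary peaks, taken among those with a same-strand neighbour on both sides, lay on 6 chromosomes at 8183619 to 20386659 nt from the nearest one. DHX9-mAb overlapped 4 of these 10, where it overlapped 15.1% of all solitary peaks and 28.4% of all DHX9-Rb peaks outside the mitochondrial chromosome. A set of 10 is small, and no test was made of it. The most remote was a 318 nt peak on the plus strand of chromosome 13 from 73432236 to 73432553, with the nearest DHX9-mAb peak of its strand 20386678 nt away. The second was also on chromosome 13, on the minus strand from 79230182 to 79230327, and here DHX9-mAb had a peak from 79230205 to 79230327, which ended on the same base. A pair followed on chromosome 9. The plus-strand one, from 71691996 to 71692190, was matched by a DHX9-mAb peak from 71691995 to 71692176. The minus-strand one, from 111708263 to 111708383, lay wholly within a DHX9-mAb peak from 111708248 to 111708428. The fourth of these overlapped regions lay on the plus strand of chromosome 18 from 29702038 to 29702274, overlapped over 148 nt. At these places a single region on a strand was marked by both antibodies and the nearest other DHX9-Rb peak of that strand was at least 8183619 nt away.

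The positions of the second antibody did not enter the choice of the solitary peaks, and they were used to ask how often a lone site was found again. DHX9-mAb overlapped a smaller share of the solitary peaks than of the other peaks. Of the 2642 solitary peaks, 399 overlapped a same-strand DHX9-mAb peak by at least 1 nt, or 15.1% (Wilson 13.8 to 16.5), where 28.4% of all DHX9-Rb peaks outside the mitochondrial chromosome did. Of the other peaks 5733 did, or 30.3% (29.6 to 31.0). The difference was -15.2 percentage points (Newcombe 95% interval -16.7 to -13.6) and the odds ratio 0.409 (0.365 to 0.458; two-sided Fisher's exact test, p = 1.47e-65). Peaks of 1 transcript are not independent and material of the samples was mixed before the cDNA was made, so the test describes these 2 lists and not new experiments. When each group of linked peaks was represented by its first peak in the direction of the strand, the share among the other groups was 21.4% and the odds ratio 0.652 (Fisher's exact test, p = 7.41e-10). Intervals cover counting error only.

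The lower share was found on most chromosomes. Solitary peaks were overlapped less often than the other peaks on 22 of 23 chromosomes. The exception was chromosome 18, with 7 of 32 solitary peaks (21.9%, Wilson 11.0 to 38.8) and 19.8% of the others (12.5 to 29.7). The largest contrast in odds was on chromosome 19, where 15 of 181 solitary peaks (8.29%, 5.09 to 13.2) and 34.5% of the others (32.7 to 36.3) were overlapped. On chromosome 7 the shares were close, 20.1% (14.4 to 27.4) and 22.7% (19.9 to 25.8). With chromosomes as strata the Mantel-Haenszel odds ratio was 0.427 (0.382 to 0.478).

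**Figure D2:**
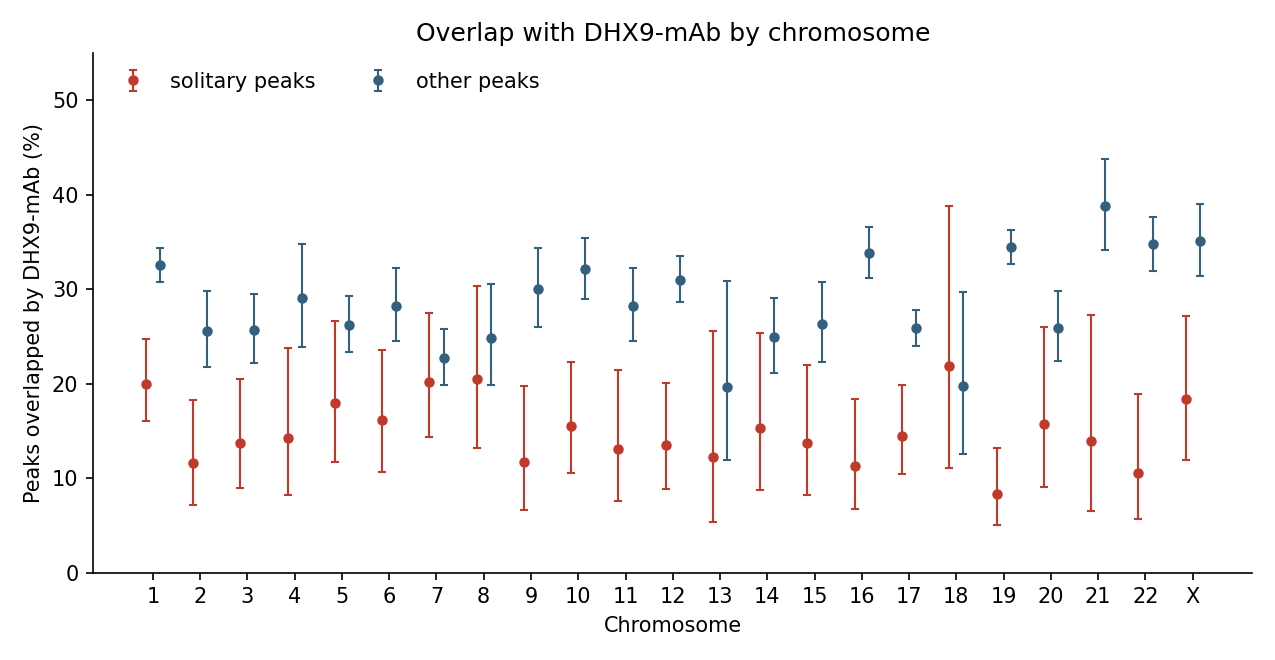
Share of DHX9-Rb peaks overlapped by a same-strand DHX9-mAb peak (y axis, %) on chromosomes 1 to 22 and X (x axis), for solitary and other peaks, with 95% Wilson intervals. The solitary share is the lower one on 22 of 23 chromosomes, and chromosome 18 is the exception.

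The lower share was a contrast with crowded peaks. The share overlapped was 41.7% (Wilson 40.6 to 42.9, n = 6852) where the nearest same-strand peak lay within 100 nt and 29.4% (28.4 to 30.5, n = 7516) from there to 500 nt. It was 16.0% (14.6 to 17.5, n = 2376) from there to 1000 nt and 12.9% (11.6 to 14.4, n = 2178) from there to 5000 nt. Solitary peaks, at 15.1%, differed from the first pair of classes (Fisher's exact test, Benjamini-Hochberg adjusted over 4 classes, p = 1.62e-144 and 8.51e-51). From the class up to 1000 nt they differed by -0.891 points (-2.91 to 1.11, exact test, adjusted p = 0.391). Against the class up to 5000 nt, the one most like them, they were overlapped slightly more often, by 2.15 points (0.178 to 4.11, exact test, adjusted p = 0.0455). With width as strata that odds ratio was 1.15 (0.979 to 1.36). The limits of these classes were set after the values had been seen. Neighbouring peaks are not independent, so these tests describe the 2 lists only.

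**Figure D3:**
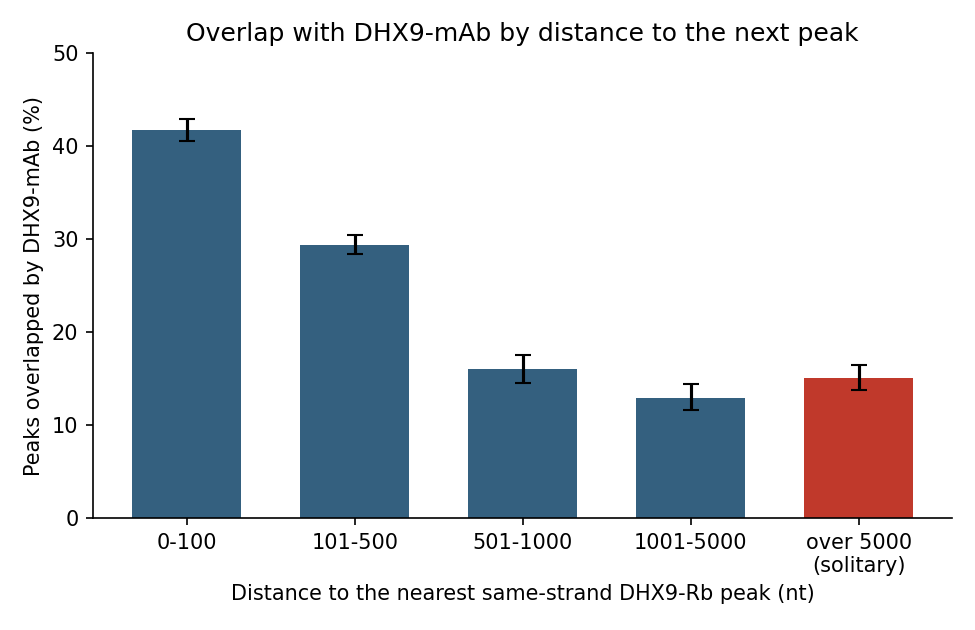
Share of DHX9-Rb peaks overlapped by a same-strand DHX9-mAb peak (y axis, %) by distance to the nearest same-strand DHX9-Rb peak in nt (x axis), with 95% Wilson intervals. The share is 41.7% in the closest class and between 12.9 and 16.0% in the classes beyond 500 nt, the solitary peaks included.

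The same was seen for whole groups. DHX9-mAb overlapped at least 1 peak in 15.1% of the groups of 1, in 33.9% of the 989 groups of 2, in 53.3% of the 883 groups of 3 to 4, in 76.1% of the 714 groups of 5 to 9 and in 96.3% of the groups of 10 and more. A group with more peaks has more chances to be overlapped. The share of single peaks overlapped was 19.9% in groups of 2 and 35.9% in groups of 10 and more.

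Width went with overlap when all other peaks were pooled, and not in the same way among the solitary ones. From under 150 nt to 300 nt and over, the share overlapped went from 21.6% to 51.0% among the other peaks, and from 16.6% (171 of 1030) to 16.9% (36 of 213) among the solitary peaks. The solitary share was the lower one in each of the 4 bins of width (Fisher's exact test, adjusted over 4 bins, p = 0.000393 under 150 nt, 7.82e-08 up to 200 nt, 2.98e-17 up to 300 nt and 2.68e-23 above). With the peaks under 100 nt as a bin of their own, added after the values had been seen, the shares there were 21.0% and 26.4%, and the difference did not pass (odds ratio 0.743, 0.513 to 1.07, exact test, adjusted over 5 bins, p = 0.102). Over the 4 bins the odds ratio went from 0.724 (0.601 to 0.869) in the narrowest bin to 0.195 (0.132 to 0.282) in the widest. These odds ratios differed from each other (Tarone's test of equal odds ratios, n = 21564 peaks, p = 1.68e-10). With 5 bins of width as strata the Mantel-Haenszel odds ratio was 0.493 (0.440 to 0.552). Overlapped and not overlapped solitary peaks had median widths of 164 nt (151 to 172) and 166 nt (163 to 170), whereas among the other peaks they were 249 nt (245 to 253) and 194 nt (193 to 196).

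**Figure D4:**
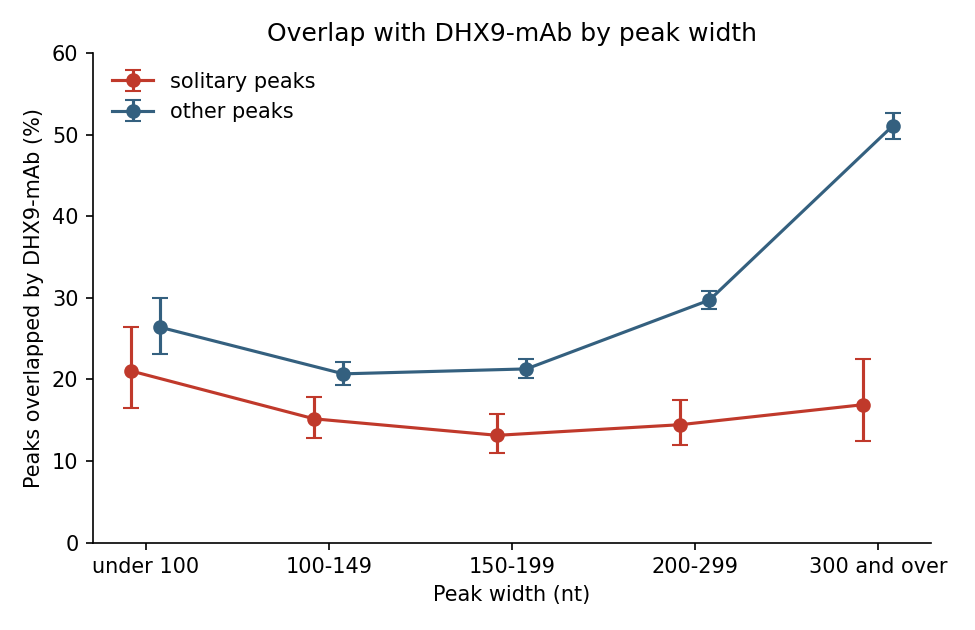
Share of DHX9-Rb peaks overlapped by a same-strand DHX9-mAb peak (y axis, %) by peak width in nt (x axis), for solitary and other peaks, with 95% Wilson intervals. The other peaks are pooled over all distances to their nearest neighbour. The curve of the other peaks reaches 51.0% in the widest bin, while the solitary peaks stay between 13.1 and 21.0%.

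The solitary peaks were also compared among themselves. With the peaks under 100 nt as a bin of their own, a split chosen after the values had been seen, 53 of 252 were overlapped (21.0%, Wilson 16.5 to 26.5), against 14.5% of the wider solitary peaks (Fisher's exact test, adjusted over 5 bins, p = 0.0363). With all peaks under 150 nt in 1 bin, no bin differed from the rest past 0.05 (exact test, adjusted p from 0.189 to 0.654). By distance, 17.9% of the 716 peaks with the nearest neighbour over 200000 nt away were overlapped (15.2 to 20.9), and 14.1% of the rest (exact test, p = 0.0171 and adjusted over 4 bins 0.0683). Of the 40 solitary peaks with an opposite-strand peak within 5000 nt, 10 were overlapped (25.0%, 14.2 to 40.2), against 15.0% of the rest, a difference of 10.1 points that reached from -0.856 to 25.3 (exact test, p = 0.114). On the plus strand 16.6% were overlapped and on the minus strand 13.6% (exact test, p = 0.0340, a comparison added after the values had been seen). Over 23 chromosomes, none differed from the rest of the solitary peaks after adjustment (Fisher's exact test, smallest adjusted p = 0.118). Without adjustment 2 passed 0.05, chromosome 1 with 65 of 325 peaks (Wilson 16.0 to 24.7%) and chromosome 19 with 8.29%.

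Where both antibodies marked a site, both borders were close more often at solitary sites than at the others, though at a minority of either. Of the 399 overlapped solitary peaks, 61 had both ends within 10 nt of the DHX9-mAb ends, or 15.3% (Wilson 12.1 to 19.1), where 4.53% of all overlapped DHX9-Rb peaks had. Among the other overlapped peaks 217 of 5733 had (3.79%, 3.32 to 4.31). The odds ratio was 4.59 (3.32 to 6.26; two-sided Fisher's exact test, p = 3.45e-18). Restricted to pairs in which 1 peak of each list overlapped only the other, which held for 398 solitary and 4137 other peaks, the shares were 15.3% and 5.05% and the odds ratio 3.40 (2.46 to 4.65, exact test, p = 7.72e-13). Narrow peaks leave less room for their ends to differ. With 5 bins of width as strata the Mantel-Haenszel odds ratio was 2.24 (1.62 to 3.11). Within single bins the difference passed only from 100 to under 150 nt, with 21.2% and 9.92% (Fisher's exact test, adjusted over 5 bins, p = 0.00464). From 200 to under 300 nt the shares were 3.33% and 2.25% (exact test, adjusted p = 0.460). This comparison of ends was chosen after the lists had been seen.

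As with overlap, the contrast was with crowded peaks. Among overlapped peaks with the nearest neighbour over 1000 and up to 5000 nt away, 13.5% (38 of 282) had both ends close, and the difference from solitary peaks was 1.81 points (-3.69 to 7.02, Fisher's exact test, p = 0.581). In the direction of transcription, the median distance between the ends was 17 nt at the 5′ end and 24 nt at the 3′ end for solitary peaks, and 48 and 56 nt for the other peaks. It was 36 and 44 nt for the other peaks in 1 to 1 pairs, and 23 and 30 nt in the class over 1000 and up to 5000 nt. The median signed shift of the DHX9-mAb end was 0 nt at the 5′ end and -3 nt at the 3′ end for solitary peaks. For the other peaks it was 8 and -20 nt, and for the class over 1000 and up to 5000 nt 1 and -6 nt. The shared part was a median of 71.6% of the joint region at solitary sites (interquartile range 56.1 to 84.2) and 59.0% at the others (40.8 to 75.2). In the class over 1000 and up to 5000 nt it was 69.0% (51.5 to 81.2), near the solitary value. The DHX9-mAb peaks on solitary sites were themselves narrow, with a median of 147 nt.

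**Figure D5:**
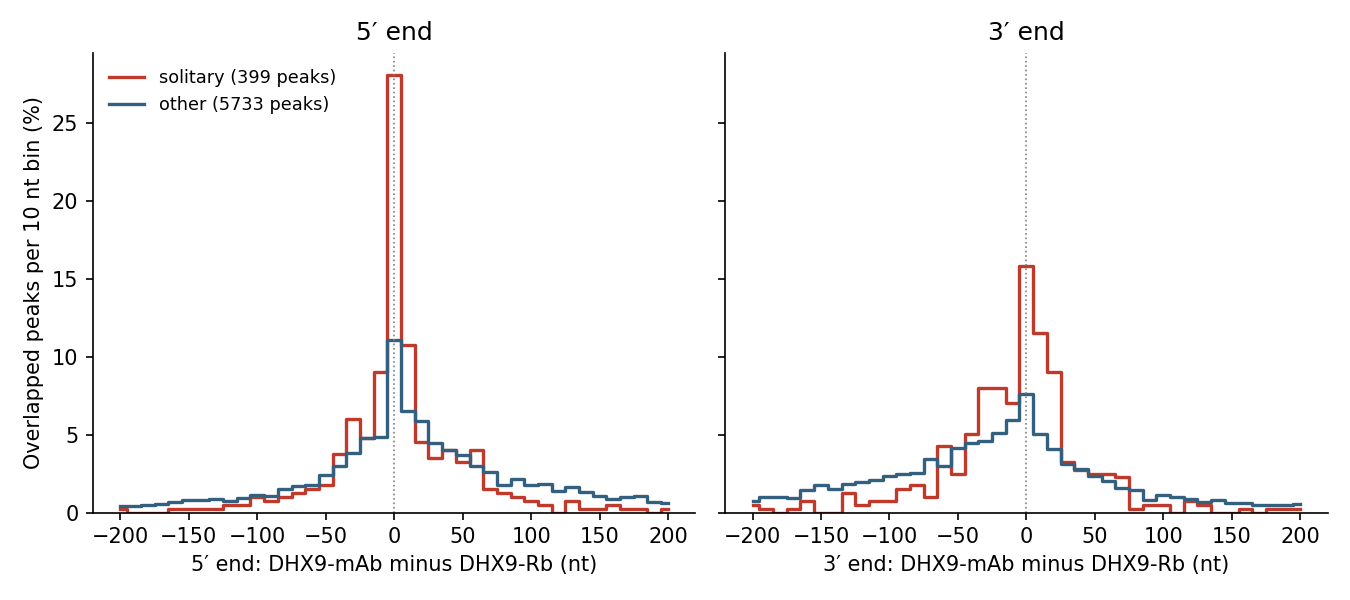
Distance between the DHX9-mAb and the DHX9-Rb end (x axis, nt, positive where the DHX9-mAb end lies farther in the direction of the strand; shifts beyond 200 nt not drawn) as share of overlapped peaks per 10 nt bin (y axis, %), at the 5′ end (left) and the 3′ end (right), for 399 solitary and 5733 other peaks. The solitary peaks form a sharper peak around 0 at both ends, with median distances of 17 and 24 nt.

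The 10 closest matches between a solitary DHX9-Rb peak and a DHX9-mAb peak that was solitary in its own list were 22 to 165 nt wide and shared 98.1 to 100% of their joint region. Apart from the 22 and 23 nt peaks of chromosomes 8 and 7, they lay on 5 chromosomes and differed by at most 2 nt at either end. On chromosome 11 the DHX9-Rb peak ran from 17097325 to 17097420 on the minus strand and the DHX9-mAb peak from 17097325 to 17097419. On chromosome 1 a plus-strand peak from 93302844 to 93302936 was met by one from 93302843 to 93302936, and another from 149815046 to 149815127 by one from 149815047 to 149815127. On the minus strand of that chromosome the matches were at 45187457 to 45187578, against 45187456 to 45187579, and at 225751946 to 225752052, against 225751948 to 225752052. The remaining ones were on the minus strand of chromosome 8 from 56986389 to 56986464, on the plus strand of chromosome 22 from 43011244 to 43011408, which was the widest, and on the plus strand of chromosome 5 from 140090857 to 140090962. Of these 10 places, 6 were under 100 nt wide. Their isolation varied widely, from 7570 nt to the nearest same-strand peak on chromosome 5 to 8124961 nt on chromosome 8.

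The regions found by both antibodies were for the most part alone in both lists. Of the 399 overlapped solitary peaks, 380 (95.2%, Wilson 92.7 to 96.9) met a DHX9-mAb peak with no other DHX9-mAb peak within 5000 nt on its strand. That held for 21.0% of all overlapped DHX9-Rb peaks and for 15.8% of the overlapped other peaks. Where the lists overlap, the gaps in one are tied to the gaps in the other, so this share carries no test.

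Solitary peaks that DHX9-mAb did not overlap had in general no DHX9-mAb peak nearby. Of these 2243 peaks, 78 (3.48%, Wilson 2.8 to 4.32) had a DHX9-mAb peak elsewhere within 5000 nt on their strand, against 68.1% of the not overlapped other peaks. The median distance to the nearest same-strand DHX9-mAb peak was 136122 nt (interquartile range 26067 to 815394) for the solitary peaks and 1506 nt for the others. Widening the search from overlap to 100, 500 and 1000 nt brought the number of solitary peaks with a DHX9-mAb peak from 399 to 411, 440 and 453. In all, 2165 solitary peaks (81.9%) stood on a stretch of strand where DHX9-mAb had no peak within 5000 nt, against 4208 of the 18922 other peaks (22.2%). Most of the DHX9-mAb list fell on DHX9-Rb regions. By the rule, further such regions lie within 5000 nt of the comparison peaks and not of the solitary ones. These contrasts therefore follow from the rule in part and carry no test.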

How the data were processed

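DHX9 FLASH libraries of HEK293 cells were analysed from 2 lists of peak regions. The deposited columns give each region's start, end and strand, counted from 1, and the authors' score column held 0 numbers. Per the submitters' processing notes, reads were processed with Bowtie2 2.2.6 and hg19. PEAKachu is named in the files. Its version, settings, control and treatment of replicates and of reads that map to several places were not given in the sources used here. Each list was tied to its antibody through the labels of both replicates.

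Gaps, overlaps (at least 1 nt, same strand) and linked groups were computed in Python 3.11.15 with NumPy 2.4.6 and pandas 2.3.3, and tests with SciPy 1.17.1 and statsmodels 0.14.6. Figures used matplotlib 3.10.9. Shares carry 95% Wilson intervals and were compared by Fisher's exact test (two-sided), adjusted within each family by Benjamini and Hochberg's method at 0.05, and by Mantel-Haenszel odds ratios over strata. Chromosomes needed at least 20 solitary peaks for a test. The functions for gaps, distances and overlaps were tested on simulated peaks. Odds ratios, Fisher's exact test and Tarone's test were tested on overlaps drawn with known shares. The linking of groups was checked against the gaps of the DHX9-Rb list itself. Regions were named by rule: the 10 most remote, the 10 widest, the 10 best matched with a solitary DHX9-mAb peak, up to 10 facing an opposite-strand peak, and 5 on either side of the limit. The members and rules were chosen with earlier results of these data known. Gene context and base composition, which need hg19 sequence or annotation, were not run. Alternatives changed the limit, overlap, strand, merging, chromosomes and unit counted. The depth behind each peak is unknown.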

Additional observations from a re-analysis of the deposited data

How the results depend on the processing

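The lists hold no depth, replicate or control values, so no result could be checked between replicates. No paired analysis was possible because each list stands for both replicates of its antibody, and leaving out a replicate was not run for the same reason. The odds ratio of overlap stayed under 1 and past 0.05 in 17 of 18 alternatives. It was reversed, to 1.20 and a difference of 2.15 points, when only other peaks with a neighbour over 1000 and up to 5000 nt away were compared. The cause was not tested. The other values moved as follows. The number of solitary peaks was 1227 with a limit of 50000 nt, 4820 with 1000 nt and 7196 with 500 nt. Their overlapped share was 13.7% when 50% of the peak had to be covered, against 22.1% of the others. With 20% coverage the share of the others was 28.4%, with a DHX9-mAb peak within 100 nt 35.2%, with 1 peak per group 21.4% and without chromosome 19 29.6%. With limits of 500, 1000, 2000 and 50000 nt it was 35.3, 32.6, 31.2 and 29.2%. The median widths of solitary and other peaks were 180 and 214 nt with a limit of 500 nt, 174 and 210 nt with 1000 nt, and 161 and 204 nt with 50000 nt. They were 174 and 210 nt without peaks under 100 nt. The solitary median was 170 nt with a limit of 2000 nt, and that of the others 217 nt with peaks within 50 nt merged. The coverage and 100 nt settings change only what counts as overlapped, and the others change which peaks are counted, by construction. The limits of 500 and 1000 nt, the class up to 5000 nt, the removal of narrow peaks and all alternatives on ends were added after the data had been seen. The odds ratio of close ends was 4.67 within 5 nt and 3.72 within 20 nt.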

Other observations

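The DHX9-mAb list, treated by the same rule, held 1650 solitary peaks outside the mitochondrial chromosome, or 24.3% of its 6781 peaks (Wilson 23.3 to 25.4), against 12.3% of the DHX9-Rb list. A sparser list leaves more peaks alone under a fixed limit, so the shares of the lists are not comparable as such. The solitary DHX9-mAb peaks had a median width of 166 nt (163 to 169), the same as the solitary DHX9-Rb peaks, and the other DHX9-mAb peaks one of 201 nt (198 to 204). A DHX9-Rb peak overlapped 1234 of the solitary DHX9-mAb peaks (74.8%, 72.6 to 76.8) and 92.2% of the other DHX9-mAb peaks (91.4 to 92.9). In 380 of the 1234 cases (30.8%) the DHX9-Rb peak was solitary too, and in the rest it belonged to a DHX9-Rb group. Solitary DHX9-Rb peaks met 400 DHX9-mAb peaks, which was 5.90% of that list.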
